A study of Mus musculus with 17 samples.

Results

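Cacna1d encodes the pore-forming alpha1 subunit of Cav1.3, an L-type voltage-gated calcium channel. It was described here across synovial macrophages as 1 gene of the 22859 genes counted. The synovium is the membrane that lines joints. All macrophages came from mice labelled Fcgr2b-KO, controls included, a knockout of the receptor by which IgG inhibits cells, and wild-type mice were not analysed here. Treated mice had been given immune complexes (IC), ovalbumin bound by antibodies to it, into a vein, and were culled after 8 h. The controls are labelled Control and Healthy, and what they received is not in the labels. 3 subsets were sorted by surface markers, LYVE1+CX3CR1+ (called LYVE1+ below), MHCII+CD11c- (CD11c-) and MHCII+CD11c+ (CD11c+), each from control mice (n = 3 libraries) and after IC (n = 3, 3 and 2 libraries), which gave 17 libraries in 6 groups. Nothing in the labels says that libraries of a group came from separate mice, so all p-values measure the spread between these libraries, which may be technical.

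Voltage-gated calcium channels open when the membrane depolarizes and let calcium into the cell. The alpha1 subunit forms the pore and holds the voltage sensor, and the beta and alpha2delta subunits carry the pore to the membrane and tune its gating. Cav1.3 is best known from pacemaker cells of the heart, hair cells of the ear, neurons and endocrine cells, where it opens at less depolarized voltages than its close relative Cav1.2, encoded by Cacna1c. Macrophages are not classed as excitable, and their calcium signals are better known from store release, store-operated entry and purinergic receptors.

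Cacna1d was chosen by its measured values in these libraries, so its levels and differences below are a description and carry no test. Depth ranged from 2301913 to 7248939 counts per library, and the smallest count of Cacna1d was 43. LYVE1+ libraries held 2301913 to 3348248 counts after IC and 3669763 to 7248939 in controls. Genes with a count numbered 11547 to 14068 and 16974 to 19926 in these 2 groups. The part of this in counts of 0 after IC was not tested. Fcgr2b itself had between 167 and 1168 counts in every library, which goes against a knockout label read as loss of the transcript. Counts per gene do not show whether the deleted part was covered, and this was not tested. The sorted subsets held their defining genes. Itgax, which encodes CD11c, reached 275 to 443 CPM (read counts relative to library size, with TMM scaling between libraries) in CD11c+ libraries and at most 16.0 CPM in all others. The 4 MHC class II genes summed to at least 11130 CPM in MHCII+ libraries and at most 156 CPM in LYVE1+ libraries. 2 libraries stood apart, the MHCII+ control libraries numbered 2, with Lyve1 at 1131 CPM without CD11c and 382 CPM with CD11c, against 695 and 730 CPM and 29.8 and 25.3 CPM in the others of their groups. CD11c- library 1 after IC stood apart by Vsig4, at 541 CPM against 144 and 28.3 CPM in the others of its group. It did not stand apart by Lyve1, at 2337 CPM against 1455 and 2458 CPM.

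Cacna1d (ENSMUSG00000015968.17) spans chr14:30039939-30491455 on the minus strand of GRCm38 (mm10) in GENCODE M21, with 12 annotated transcripts. Its exons cover 12621 bases, 2.80% of a span of 451517 bases. The counts were made per gene and do not say which exons or which start the reads came from. The last exons share 589 bases with exons of Chdh, which lies on the plus strand, and the most upstream start lies within the span of Dcp1a, also on the plus strand, without shared exons. Use of the strand in counting was not stated, so reads of Cacna1d and Chdh in those 589 bases cannot be told apart. Both annotated RefSeq starts are shown because they differ in base composition. Each sequence below is the 250 bases before the first transcribed base (RefSeq, GRCm38.p6, minus strand), 5′ to 3′, at chr14:30491157-30491406 for the upstream start and chr14:30353487-30353736 for the inner start. The upstream window lies within the GENCODE M21 span given above, because 1 transcript there starts at 30491455, so the 2 annotations differ on this start. Capitals mark every match to 1 of 5 motifs on either strand.
upstream start: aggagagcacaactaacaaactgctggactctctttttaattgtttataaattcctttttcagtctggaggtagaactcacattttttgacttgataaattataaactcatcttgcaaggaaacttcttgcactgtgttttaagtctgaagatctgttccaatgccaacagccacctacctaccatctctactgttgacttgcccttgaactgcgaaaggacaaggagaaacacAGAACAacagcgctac
inner start: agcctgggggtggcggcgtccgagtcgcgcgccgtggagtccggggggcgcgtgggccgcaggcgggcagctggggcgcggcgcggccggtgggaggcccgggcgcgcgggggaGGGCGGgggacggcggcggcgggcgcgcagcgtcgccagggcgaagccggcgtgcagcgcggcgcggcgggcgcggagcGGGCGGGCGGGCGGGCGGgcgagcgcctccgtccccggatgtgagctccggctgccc

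The upstream window was 39.6% G or C and the inner window 86.4%, against a median of 52.4% over 32851 windows of 27025 genes. The GC box (GGGCGG) occurred 5 times in the inner window, 4 of them in a run of overlapping repeats, and not in the upstream window. It was present in 32.7% of all windows. The half-site of steroid receptors (AGAACA) occurred once in the upstream window and was present in 16.1% of all windows. The E-box CACGTG, the AP-1 motif TGANTCA and the cAMP response element TGACGTCA, present in 6.02%, 6.75% and 1.55% of windows, were in neither of these stretches. A match is a description of these letters, and nothing about binding was measured.

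Cacna1d was higher after IC in all 3 subsets. In LYVE1+ macrophages the control libraries read 37.8, 43.8 and 52.3 CPM, and the IC libraries 95.1, 66.1 and 141 CPM. The lowest IC library stood above the highest control, and the IC libraries spread more widely than the controls. Means were 44.6 ± 7.30 CPM (SD, n = 3) and 100.6 ± 37.6 CPM (SD, n = 3), and the fitted log2 difference was 1.17 ± 0.29 (SE).

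The widest gap was in CD11c- macrophages. Control libraries read 32.0, 31.1 and 20.4 CPM and IC libraries 104, 145 and 178 CPM, so every IC library had over 3 times the level of every control library. Means were 27.8 ± 6.45 CPM (SD, n = 3) and 142 ± 37.2 CPM (SD, n = 3), with a fitted log2 difference of 2.34 ± 0.30 (SE). Among 10212 genes with a mean of at least 5 CPM, this fitted difference ranked 20 from the highest, a value from the contrast the gene was chosen on.

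In CD11c+ macrophages the control libraries read 35.5, 24.3 and 16.3 CPM and the 2 IC libraries 92.4 and 80.4 CPM, again without overlap. Means were 25.4 ± 9.67 CPM (SD, n = 3) and 86.4 ± 8.46 CPM (SD, n = 2). The fitted log2 difference was 1.75 ± 0.32 (SE). By the same ranking it stood at 74 here and at 160 in LYVE1+ macrophages, of 10212 genes.

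**Figure D1:**
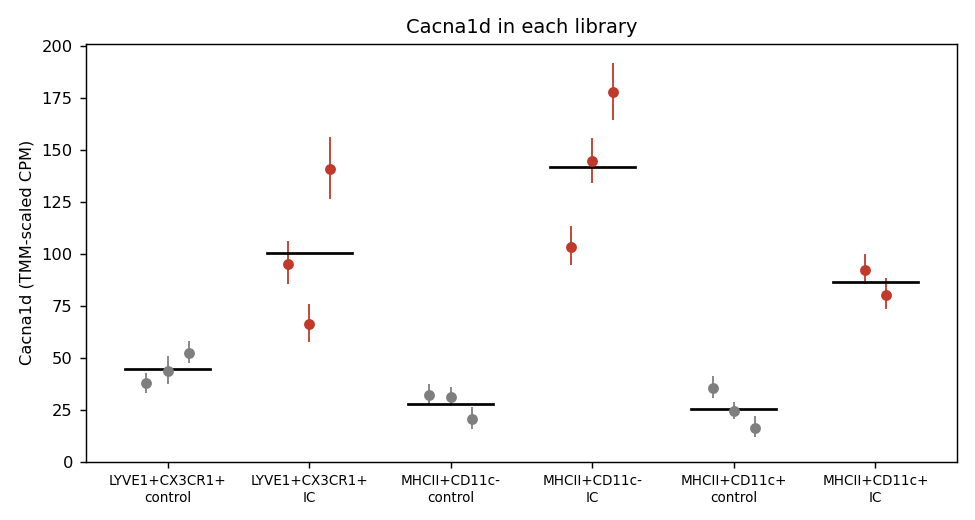
Cacna1d in TMM-scaled CPM (vertical axis, linear from 0) for each of the 17 libraries in the 6 groups (horizontal axis). Points are libraries with 95% Wilson intervals for counting error only, and black bars are group means; the 8 IC libraries sit between 66.1 and 178 CPM and the 9 control libraries between 16.3 and 52.3 CPM.

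Separation of all IC libraries from all controls in the direction of IC was seen for 4.95% of the 15272 genes tested in LYVE1+ macrophages, 8.72% in CD11c- and 14.1% in CD11c+ macrophages, where 1 group has only 2 libraries. It held in all 3 subsets together for 0.727% of genes. Since the choice of Cacna1d used these contrasts, its own separation is listed beside these shares and nothing is read from it. In bulk samples such as these, fewer cells of a type and less RNA per cell cannot be told apart.

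By mean level the 6 groups ran from CD11c- after IC, through LYVE1+ after IC and CD11c+ after IC, to LYVE1+ controls, CD11c- controls and CD11c+ controls. Libraries overlapped between CD11c- and LYVE1+ after IC, between LYVE1+ and CD11c+ after IC, and between CD11c- and CD11c+ controls. CD11c+ libraries after IC and LYVE1+ controls did not overlap (lowest 80.4 against highest 52.3 CPM), nor did LYVE1+ and CD11c- controls (lowest 37.8 against highest 32.0 CPM). Within control mice the fitted log2 difference was 0.67 ± 0.29 (SE) for LYVE1+ over CD11c- macrophages and 0.80 ± 0.30 (SE) over CD11c+ macrophages. The 2 MHCII+ subsets differed by -0.13 ± 0.30 (SE) with CD11c minus without.

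After IC the order of the subsets was another. LYVE1+ macrophages were lower than CD11c- by a log2 difference of -0.50 ± 0.29 (SE), with overlapping libraries, and differed from CD11c+ by 0.22 ± 0.32 (SE), also with overlap. CD11c+ libraries lay below all CD11c- libraries, at -0.72 ± 0.32 (SE). The IC response itself was smaller in LYVE1+ than in CD11c- macrophages by a log2 difference of -1.17 ± 0.41 (SE). The other 2 differences of responses were -0.59 ± 0.43 (SE) for LYVE1+ minus CD11c+ and -0.59 ± 0.44 (SE) for CD11c+ minus CD11c-.

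Markers of the subsets and of other cells moved with treatment in some groups. The summed level of 5 LYVE1-side genes (Lyve1, Cx3cr1, Timd4, Vsig4, Folr2) was 988 to 1721 CPM in CD11c- controls and 1817 to 3293 CPM after IC, and 3552 to 4384 against 5560 to 6516 CPM in LYVE1+ macrophages. In CD11c+ libraries the 2 smooth muscle genes found of 3 (Acta2, Myh11) summed to 0.213 to 1.89 CPM in controls and 23.1 to 125 CPM after IC, and the 3 mast cell genes found of 4 to 0.425 to 3.40 and 17.04 to 31.2 CPM. The 4 neutrophil genes went the other way there, from 56.1 to 211 CPM in controls to 0.550 to 1.62 CPM after IC. Smooth muscle genes overlapped between treatments in CD11c- libraries (0.353 to 64.4 and 2.22 to 32.6 CPM). The 4 endothelial genes summed to 3.03 to 15.05 CPM in CD11c+ controls and 25.3 to 25.6 CPM after IC. The 4 skeletal muscle genes went from 8.35 to 23.5 CPM in LYVE1+ controls to at most 1.76 CPM after IC. The 4 MHC class II genes were lower after IC in CD11c- macrophages, at 16325 to 17607 CPM in controls and 11130 to 11574 CPM after IC, and in LYVE1+ macrophages, at 102 to 156 and 19.8 to 49.1 CPM. The 4 neuron and Schwann cell genes found of 5 summed to at most 32.4 CPM in any library, and that highest value was a CD11c- control. The 5 fibroblast genes overlapped between treatments in every subset and summed to at most 174 CPM, in CD11c+ control library 1. The 2 T and B cell genes found of 4 summed to at most 16.4 CPM, in CD11c- control library 1. The part of these cells in the level of Cacna1d was not tested. With both MHCII+ control libraries numbered 2 left out, an alternative chosen after seeing the data, the log2 differences of Cacna1d after IC were 1.22, 2.42 and 1.71 in LYVE1+, CD11c- and CD11c+ macrophages.

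The other channel subunit genes, unlike Cacna1d, were tested for a difference after IC. Of the 25 further genes for channel subunits, 19 were in the table, 16 had over 3 counts in at least 2 libraries and 11 passed the filter on low counts. The 11 gave 0 calls by edgeR's quasi-likelihood test without covariates (Benjamini-Hochberg adjusted p under 0.05 over all genes) after IC in any subset. The background of calls by this test was 0.963% of 15272 genes in LYVE1+, 0.701% in CD11c- and 0.216% in CD11c+ macrophages. Every background share of calls in this text is from this test, and shares by other methods are not given. Unadjusted p-values were under 0.05 for 2, 1 and 0 of the 11 genes in these subsets, beside 2159, 1526 and 795 of all 15272 genes. DESeq2 called 1 gene in LYVE1+ macrophages and none in the others, and voom called none. That gene was Cacna2d4, an alpha2delta subunit, which had 1.62 to 4.19 CPM in LYVE1+ controls and 0 counts in all 3 IC libraries. Fewer genes had a count in these 3 libraries than in the controls, as given above. With surrogate variables, edgeR's test called Cacna1b lower after IC in LYVE1+ macrophages (adjusted p = 0.0213). The median log2 differences of the 11 genes were -0.36, -0.35 and -0.39, against -0.14, -0.03 and 0.01 over all genes tested.

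Cacna1a, which encodes the pore of the P/Q-type channel Cav2.1 known from nerve terminals, was the other alpha1 gene at a sizeable level. It read 106, 104 and 79.1 CPM in LYVE1+ controls and 80.2, 92.5 and 103 CPM after IC. In CD11c- macrophages it read 10.02, 48.4 and 8.02 CPM in controls and 43.2, 6.80 and 10.7 CPM after IC. In CD11c+ macrophages it read 1.70, 27.1 and 4.92 CPM in controls and 9.55 and 2.199 CPM after IC. It was thus high in every LYVE1+ library. The 2 high MHCII+ controls were those numbered 2, each with the most Lyve1 and Vsig4 of its group. The CD11c- library with 43.2 CPM of Cacna1a after IC had the most Vsig4 but not the most Lyve1 of its group. Its log2 differences after IC were -0.07, -0.15 and -0.96, with adjusted p-values of 0.997, 0.983 and 1.

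Per length of exon the gap between Cacna1a and Cacna1d in LYVE1+ macrophages was narrower after IC. In LYVE1+ controls Cacna1a stood at 8.43 ± 1.31 CPM per kb (SD, n = 3) and Cacna1d at 3.54 ± 0.579, and after IC they stood at 8.06 ± 1.01 and 7.97 ± 2.98 CPM per kb. The ratio of Cacna1d to Cacna1a per kb was 0.322, 0.383 and 0.598 in the 3 controls and 1.07, 0.646 and 1.23 after IC. Cacna1d made up 23.7% to 36.6% of the CPM per kb of the 10 alpha1 genes in LYVE1+ controls and 38.8% to 55.2% after IC. In CD11c- macrophages it made up 31.3% to 54.7% in controls and 65.9% to 89.2% after IC. In CD11c+ macrophages it made up 32.7% to 73.9% in controls and 74.2% and 78.7% after IC. The lowest shares in MHCII+ controls, 31.3% and 32.7%, were those of the libraries numbered 2, where Cacna1a made up 53.9% and 40.2%. The lowest in CD11c- macrophages after IC, 65.9%, was that of library 1, where Cacna1a made up 30.4%. These shares thus depend on the level of Cacna1a as well. Lengths are exon unions of GENCODE M21, which may not be the annotation used for counting.

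Of the other L-type genes, Cacna1c (Cav1.2 of heart and smooth muscle) reached at most 4.10 CPM, Cacna1f (Cav1.4 of the retina) at most 4.41 CPM and Cacna1s (Cav1.1 of skeletal muscle) at most 1.71 CPM in any library. The T-type genes Cacna1g, Cacna1h and Cacna1i reached at most 3.85, 2.06 and 4.27 CPM, and the R-type gene Cacna1e at most 3.01 CPM. Several of these values rest on under 20 counts. None was called by edgeR's test without covariates in any contrast. Cacna1i was called lower in LYVE1+ than in CD11c- controls by voom, and lower in LYVE1+ macrophages in 2 further contrasts with surrogate variables. Cacna1b, the pore of the N-type channel Cav2.2, had its highest group means in CD11c+ macrophages. It read 6.17, 9.66 and 8.70 CPM in their controls and 8.81 and 12.5 CPM after IC, while the LYVE1+ libraries read 1.102, 1.35 and 0.140 CPM in controls and 0 counts in all 3 after IC. After IC it was at least 10.4-fold higher in CD11c+ than in LYVE1+ macrophages, taking 3 counts per library as the floor (edgeR adjusted p = 0.00530). The call held in all 29 alternatives, with adjusted p-values between 0.000162 and 0.0363. It was the 1 subunit gene called between any subsets by edgeR's test without covariates, against 11.9% of all genes in that contrast.

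**Figure D2:**
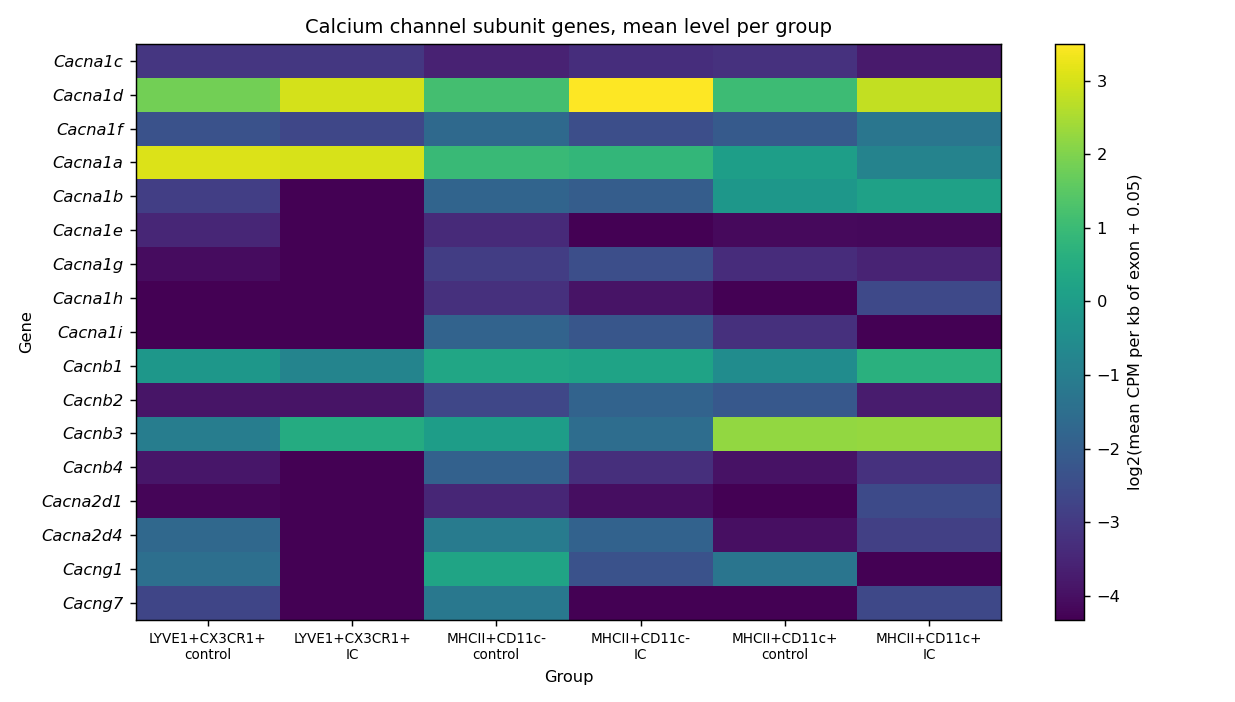
Mean level of Cacna1d and of the 16 other channel subunit genes with over 3 counts in at least 2 libraries (rows) in the 6 groups (columns), coloured by log2 of the mean CPM per kb of exon plus 0.05. Cacna1d and Cacna1a are the brightest rows, and Cacna1b and Cacnb3 are brighter in the CD11c+ columns than in most others.

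Subunit genes that accompany the pore were scarce. Cacnb1, a beta subunit best known from skeletal muscle, was the one found in all 17 libraries with over 3 counts, at 1.66 to 8.67 CPM. Cacnb3, the beta subunit known from lymphocytes and neurons, read 4.89, 12.4 and 38.6 CPM in CD11c+ controls and 20.6 and 17.8 CPM after IC, and at most 6.69 CPM in CD11c- libraries. In LYVE1+ libraries it was at most 3.78 CPM except for 1 IC library at 16.2 CPM. Its differences did not pass edgeR's test without covariates in any contrast. Both voom and edgeR's test with surrogate variables called it, in the same 3 contrasts with CD11c+ macrophages. Cacnb2 reached 7.15 CPM, Cacnb4 4.35 CPM, Cacna2d4 5.68 CPM, Cacna2d1 2.93 CPM and the gamma subunits Cacng1 and Cacng7 3.199 and 2.67 CPM. Cacna2d2 and Cacna2d3 did not exceed 3 counts in any library.

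Subunit genes also gave no call between subsets in control mice by edgeR's test without covariates. The background there was 1.56% of genes for LYVE1+ against CD11c-, 15.2% against CD11c+, and 8.66% for the 2 MHCII+ subsets. Unadjusted p-values under 0.05 were found for 1, 4 and 1 genes, beside 1564, 4065 and 3264 of all 15272 genes. DESeq2 called 0, 3 and 1 subunit genes and voom called 2, 4 and 2. With all libraries kept, voom called Cacna1a higher in LYVE1+ than in CD11c- controls (adjusted p = 0.0233). Against CD11c+ controls, DESeq2 and voom both called it (adjusted p = 0.00998 and 0.00992). By edgeR's test without covariates, Cacna1a was not called over all 17 libraries, and was called without both MHCII+ control libraries numbered 2. Its log2 difference of LYVE1+ over CD11c- controls was 2.09 (adjusted p = 0.507) and became 3.37 (adjusted p = 0.0233) without both MHCII+ control libraries numbered 2. Over CD11c+ controls it was 3.04 (adjusted p = 0.0706) and became 4.92 (adjusted p = 0.00116).

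Genes for other steps of calcium handling were counted from 4 lists of 74 genes in all: regulators of the channel, other routes of entry, stores and export, and calcium signalling. Of these 73 were in the table and 65 passed the filter. After IC, 2 were called in LYVE1+ macrophages, both lower, and 0 in each of the MHCII+ subsets, beside 0.963%, 0.701% and 0.216% of all genes. Their medians were -0.12, -0.12 and 0.05 on the log2 scale. Unadjusted p-values under 0.05 were found for 11, 9 and 7 genes, beside 2159, 1526 and 795 of all 15272 genes. DESeq2 called 3, 1 and 0 and voom called 1, 0 and 0.

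The genes called were Atp2b1 and Rem1. Atp2b1, the plasma membrane pump that expels calcium, read 608, 670 and 701 CPM in LYVE1+ controls and 391, 439 and 302 CPM after IC, without overlap. It fell by 0.80 ± 0.16 (SE) on the log2 scale (edgeR adjusted p = 0.0123). Rem1, a small G protein known to inhibit L-type channels, read 4.72, 7.84 and 6.28 CPM in controls and 0.878, 1.57 and 0 CPM after IC. It fell by 2.81 ± 0.69 (SE) on the log2 scale (adjusted p = 0.0481), and this call was lost in 22 of 29 alternatives. The call of Atp2b1 was lost in 3, without LYVE1+ IC library 3 or control library 3 and with only the 2 groups in the fit, with adjusted p-values of up to 0.0942. In CD11c- macrophages Rem1 read 9.60, 8.31 and 15.4 CPM in controls and 5.32, 7.21 and 14.6 CPM after IC, and in CD11c+ macrophages 31.7, 20.4 and 32.9 against 12.8 and 19.1 CPM. No list gene was called for a difference of the IC response between subsets, where the background was 0.0262%, 0.0327% and 0% of genes for LYVE1+ minus CD11c-, LYVE1+ minus CD11c+ and CD11c+ minus CD11c-. Unadjusted p-values under 0.05 for these differences were found for 1, 2 and 0 of the 11 subunit genes and for 5, 7 and 1 of the 65 others. Beside them stood 1152, 1225 and 496 of all 15272 genes. DESeq2 and voom called no list gene for these differences.

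**Figure D3:**
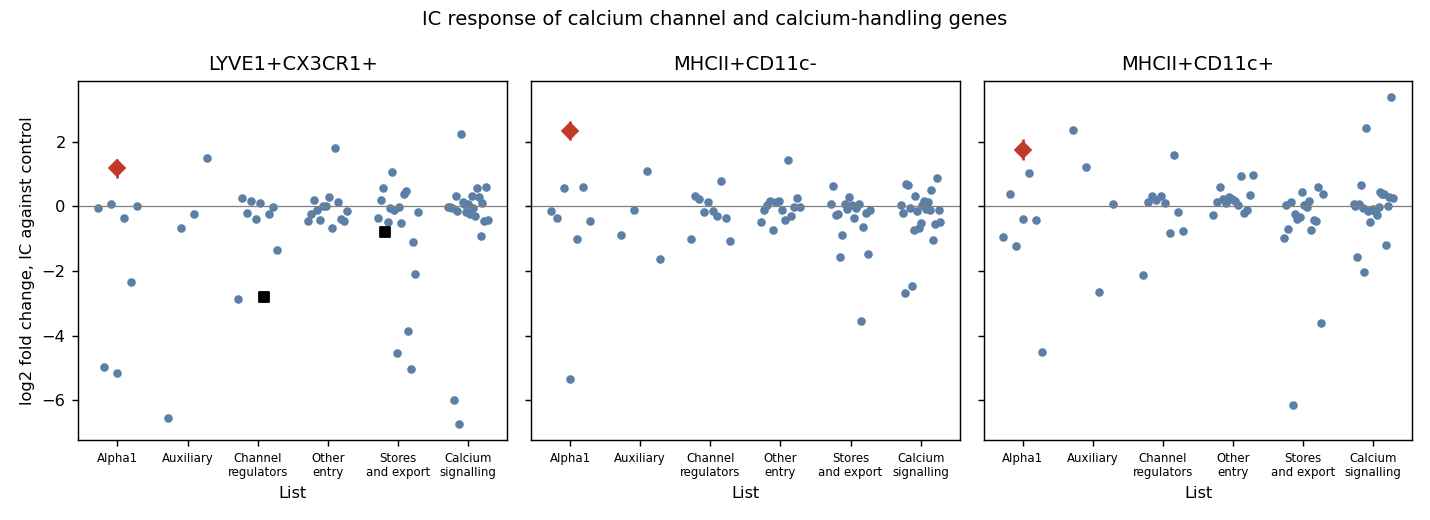
Fitted log2 fold change of IC against control (vertical axis) for each tested gene of the 6 lists (horizontal axis) in the 3 subsets (panels). The red diamond with SE bar is Cacna1d (1.17, 2.34 and 1.75), blue points are other genes not called, and black squares are the 2 genes called, Rem1 and Atp2b1; points far below 0 include Cacna1b in LYVE1+ macrophages, with 0 counts after IC.

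Between subsets of control mice most calls of calcium-handling genes involved CD11c+ macrophages. LYVE1+ macrophages differed from CD11c- in 2 of the 65 genes, both higher, where 1.56% of all genes were called. These were Camk2d, a calcium- and calmodulin-dependent kinase, at 108 ± 32.0 against 46.5 ± 9.26 CPM (SD, n = 3 each; adjusted p = 0.0137 in edgeR), and Atp2a3, a pump that refills the endoplasmic reticulum, at 144 ± 23.8 against 59.5 ± 25.4 CPM (adjusted p = 0.0150 in edgeR). Both calls were lost without LYVE1+ control library 3, without CD11c- control library 1 or 3 and with surrogate variables, and that of Camk2d also without LYVE1+ control library 1, with adjusted p-values of up to 0.114 and 0.129. Against CD11c+ macrophages 23 of 65 were called, 14 higher and 9 lower, beside 15.2% of all genes. CD11c+ against CD11c- macrophages gave 12 of 65, 3 higher and 9 lower with CD11c, beside 8.66% of all genes.

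Itpr1, the inositol trisphosphate receptor that releases calcium from stores, was higher in CD11c+ macrophages, at 227 ± 123 CPM in controls against 21.2 ± 1.33 CPM in LYVE1+ and 40.5 ± 17.5 CPM in CD11c- controls (SD, n = 3 each). The log2 difference was -3.42 ± 0.43 (SE, edgeR adjusted p = 3.2e-05) for LYVE1+ minus CD11c+. P2rx7, the ATP-gated channel that admits calcium, was lower in CD11c+ controls, at 50.1 ± 30.2 CPM against 207 ± 11.5 and 182 ± 39.6 CPM. Camk1, a further calmodulin-dependent kinase, stood at 74.3 ± 38.1 CPM there against 456 ± 51.6 CPM in LYVE1+ controls. Prkcb, a calcium-dependent protein kinase C, and Slc8a1, the sodium and calcium exchanger, were also lower with CD11c than without, by log2 differences of -1.56 ± 0.31 (SE) and -1.49 ± 0.32 (SE). Both calls were lost with surrogate variables, at adjusted p-values of 0.132 and 0.0520. Cacna1d, by contrast, had nearly the same mean in the 2 MHCII+ controls (27.8 and 25.4 CPM).

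After IC the subsets differed in 8 of the 65 genes for LYVE1+ against CD11c- (background 5.54%). They differed in 18 for LYVE1+ against CD11c+ (background 11.9%) and in 4 for the 2 MHCII+ subsets (background 4.03%). The subunit genes gave 0, 1 and 0 calls in these contrasts. Unadjusted p-values were under 0.05 for 5, 3 and 2 of them, beside 3311, 3943 and 2140 of all 15272 genes. DESeq2 called 2, 2 and 0 of the subunit genes and voom called 0, 3 and 2.

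The neighbours of Cacna1d on chromosome 14 gave no call after IC by edgeR's test without covariates. Of 62 annotated genes within 1 Mb, 42 were in the table and 29 passed the filter. edgeR's test called 0 in every subset. Unadjusted p-values were under 0.05 for 5, 1 and 3 genes in LYVE1+, CD11c- and CD11c+ macrophages, beside 2159, 1526 and 795 of 15272 genes. DESeq2 called 1, 0 and 0, the 1 being Chdh, and voom none. With surrogate variables 4 were called in LYVE1+ macrophages, all lower (Chdh, Dcp1a, Dnah1 and Nt5dc2). The median log2 differences of the 29 neighbours were -0.16, 0.07 and 0.24 in the 3 subsets. Chdh, a choline dehydrogenase and the overlapping gene at the 3′ end, read 1.89, 4.05 and 2.65 CPM in LYVE1+ controls and 0 counts in the 3 IC libraries. In CD11c- macrophages it read 0, 2.12 and 7.02 CPM in controls and 4.66, 2.68 and 13.2 CPM after IC, with overlap. The library with 13.2 CPM of Chdh was the one with 178 CPM of Cacna1d. Dcp1a, an mRNA decapping factor that spans the upstream start, read 31.3, 29.7 and 37.5 CPM in LYVE1+ controls and 9.07, 22.7 and 23.6 CPM after IC. It was between 29.1 and 46.8 CPM in all MHCII+ libraries.

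Downstream, the next protein-coding gene tested after Chdh was Il17rb, 31.0 kb away, with Actr8 at 33.6 kb and Selenok at 64.3 kb, and their IC differences lay between -1.90 and 0.33 on the log2 scale. Cacna2d3, itself a channel subunit gene 318 kb downstream, had too few counts to be tested. Upstream, Tkt at 56.9 kb, Prkcd at 104 kb and Sfmbt1 at 223 kb had IC differences between -0.48 and 0.47. The highest fitted value was that of Mustn1, at 5.90 ± 2.08 (SE, adjusted p = 0.644) in CD11c+ macrophages. Several neighbours differed between subsets of control mice. Stab1, a scavenger receptor, was higher in LYVE1+ than in CD11c+ controls by 3.66 ± 0.45 (SE) on the log2 scale (adjusted p = 0.000101), with 6 of 29 neighbours called there, beside 15.2% of all genes. Tkt and Prkcd were lower and Sfmbt1, Nisch and Sh3bp5 higher in that contrast. The call of Sh3bp5 was lost in 14 of 29 alternatives (adjusted p up to 0.134) and that of Tkt in 1, without CD11c+ control library 1. Between the 2 MHCII+ controls 5 were called, Prkcd higher with CD11c and Sfmbt1, Nt5dc2, Stab1 and Nisch lower, beside 8.66% of all genes. LYVE1+ and CD11c- controls differed in 0 of 29 (1.56% of all genes). Of the 29, 4 had an unadjusted p under 0.05, beside 1564 of 15272 genes, and DESeq2 called 0 and voom 3. After IC 4, 5 and 4 neighbours were called between subsets, beside 5.54%, 11.9% and 4.03% of all genes, among them Chdh and Dcp1a, lower in LYVE1+ than in CD11c- macrophages. For Chdh the fold was at least 6.70 against the floor of 3 counts per library (adjusted p = 0.0180), a call lost with voom, without LYVE1+ library 1 or 2 after IC and without CD11c- library 3 after IC (adjusted p up to 0.0897). Dcp1a differed by -1.16 ± 0.32 (SE, adjusted p = 0.0320), a call lost in 13 of 29 alternatives.

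**Figure D4:**
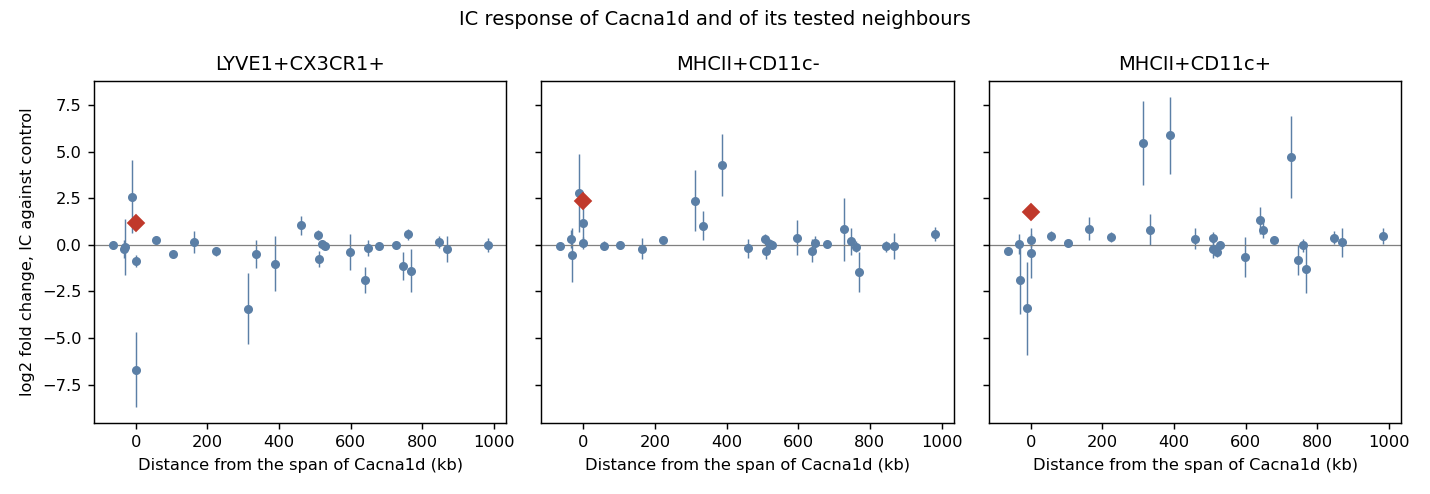
Fitted log2 fold change of IC against control with SE (vertical axis) for the 29 tested neighbours (blue) by distance from the span of Cacna1d in kb (horizontal axis, upstream positive, overlapping genes at 0) in the 3 subsets (panels). The red diamond is Cacna1d at 1.17, 2.34 and 1.75; blue points far from 0 carry long error bars, such as Mustn1 at 5.90 ± 2.08 in CD11c+ macrophages.

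Over the 17 libraries, the genes with levels most like Cacna1d were Cebpb (Pearson r of log2 CPM 0.910), Hspa1b (0.895), Qpctl (0.893), Psmc1 (0.891), Ms4a6c (0.887) and Hspa1a (0.884), out of 10211 genes with a mean of at least 5 CPM. The lowest were Tgfb1 (-0.873), Cox7a2l (-0.859) and Utrn (-0.846). These correlations describe 17 points that share treatment and library, so the gap between IC and control enters each of them. After the group means were taken away, r was 0.846 for Qpctl, which encodes a glutaminyl cyclase of the Golgi, and 0.696 for Psmc1, a subunit of the proteasome. It was 0.269 for Cebpb, a transcription factor of myeloid cells, and 0.0953 for Hspa1a. Hspa1a and Hspa1b are near-identical heat shock genes whose reads could be split between them. Of the 6 genes, 5 had a RefSeq promoter window, and 3 of those held a GC box and none the other 4 motifs.

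Qpctl read 9.45, 8.38 and 13.95 CPM in LYVE1+ controls and 19.6, 16.4 and 24.5 CPM after IC. It read 15.6, 9.54 and 7.36 CPM against 21.5, 25.5 and 27.5 CPM in CD11c- macrophages, and 15.3, 9.47 and 4.92 CPM against 14.7 and 12.8 CPM in CD11c+ macrophages. Within groups, Qpctl and Cacna1d had the same library at the top in each of the 6. Qpctl did not pass the test in any subset (adjusted p = 0.353, 0.303 and 1 in edgeR). Cebpb rose by 0.79 ± 0.18 (SE, adjusted p = 0.0282) in LYVE1+ and 1.17 ± 0.18 (SE, adjusted p = 0.00111) in CD11c- macrophages on the log2 scale. In CD11c+ macrophages it differed by 0.84 ± 0.19 (SE, adjusted p = 0.0870). Ms4a6c, a membrane protein of myeloid cells, was called in all 3, with fitted folds of 2.01, 2.98 and 2.297, though the last call was lost in 18 of 29 alternatives. The calls of Cebpb and Ms4a6c in LYVE1+ macrophages were each lost in 6, among them those without library 1 or 3 after IC and without control library 1 or 2. Those in CD11c- macrophages held in all 29. Utrn, encoding the cytoskeletal protein utrophin, fell by 1.03 ± 0.22 (SE, adjusted p = 0.0252) in CD11c- macrophages. Cox7a2l, a factor of respiratory supercomplexes, fell there by 1.18 ± 0.26 (SE, adjusted p = 0.0251). These calls were lost in 6 and 5 of 29 alternatives, both without library 3 after IC and without control library 3. Tgfb1, the cytokine TGF-beta 1, read 332 to 339 CPM in LYVE1+ controls and 263 to 287 CPM after IC, and its differences of -0.27, -0.35 and -0.17 did not pass the test. Genes chosen for likeness share the contrast with Cacna1d, so these differences follow in part from the choice.

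**Figure D5:**
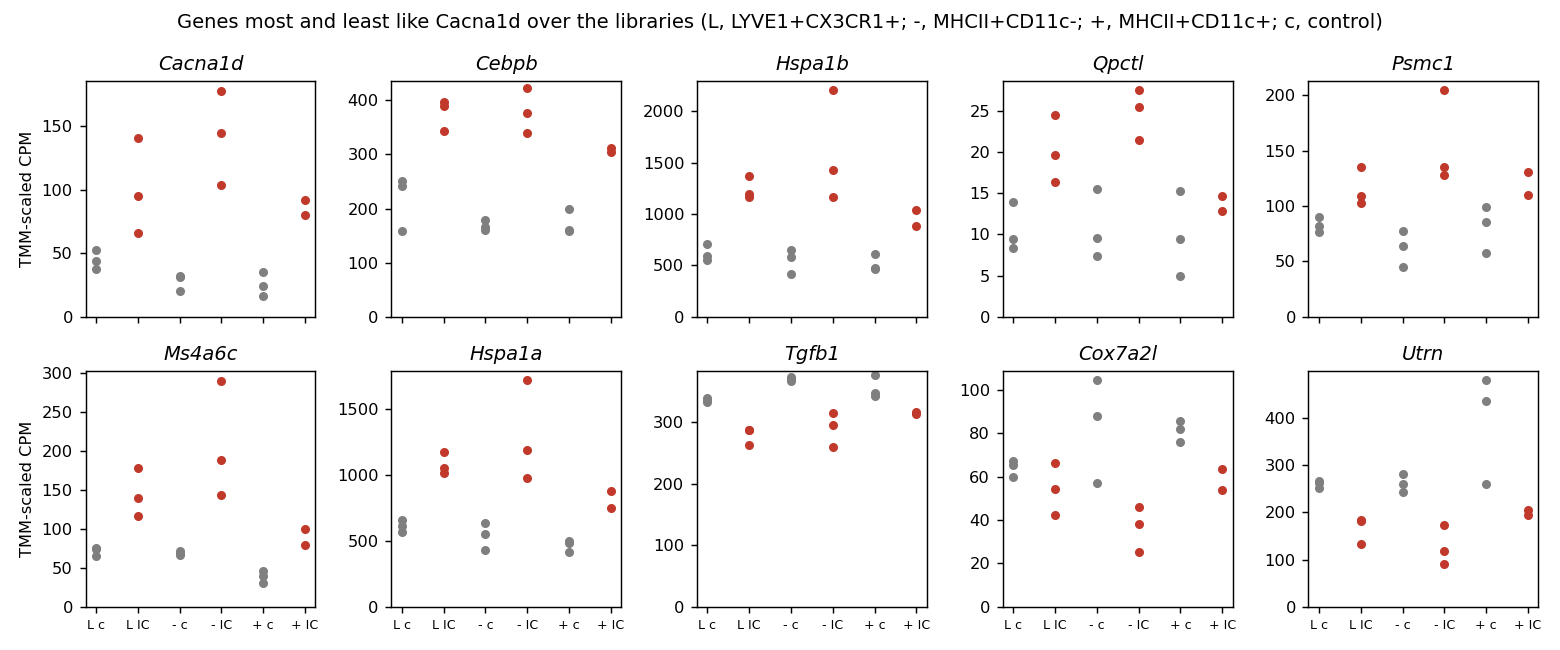
TMM-scaled CPM (vertical axes, linear from 0) of Cacna1d, the 6 genes most like it and the 3 least like it in the 17 libraries, by group (horizontal axes; grey for control, red for IC). Points are libraries; the IC points of Cebpb, Hspa1a, Hspa1b, Psmc1 and Ms4a6c lie above the controls of the same subset in all 3 subsets, and those of Tgfb1 and Utrn lie below.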

How the data were processed

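RNA of sorted synovial macrophages was sequenced in 17 libraries. The authors trimmed reads with Trim Galore, inspected them with FastQC, aligned them to mm10 with HISAT2 and deposited raw counts per gene from featureCounts. Versions, annotation and strand setting are not given in the sources used here. The counts of each library were identical in the combined and single tables for 17 of 17, and 1 unmatched column was not used. Totals ran from 2301913 to 7248939 counts; intervals and floors (3 counts) cover counting error only. The study's methods state that sva was used to take out batch effects, while the deposited counts are raw and the labels name no batch.

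Counts were fitted in R 4.3.3 with edgeR 4.0.16 (filterByExpr, minimum count 10, TMM, robust quasi-likelihood test, 1 mean per group, 11 residual degrees of freedom), which left 15272 genes, with Benjamini-Hochberg adjustment over all of them and calls under 0.05. Log2 levels used a prior count of 2. Gene spans came from GENCODE M21, matched by symbol for 97.4% of genes, and promoters from RefSeq. Alternatives used limma 3.58.1 (voom), DESeq2 1.42.0 and sva 3.50.0 (5 surrogate variables). In simulated data, only genes with a mean over 10 CPM were changed, a level that most of the tested subunit genes did not reach. Of genes changed by 1 on the log2 scale, 22%, 31% and 20% were called in LYVE1+CX3CR1+ (14518 genes), MHCII+CD11c- (14486) and MHCII+CD11c+ macrophages (14498). Of those changed by 2, 80%, 85% and 73% were called. These shares do not apply to scarcer genes.

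Cacna1d and the gene lists were chosen with earlier results of these data known. Named were Cacna1d, subunit genes with over 3 counts in at least 2 libraries, calcium-handling genes called after IC or, between control subsets, the 4 with the smallest p, neighbours within 1 Mb that passed the filter, and the 6 genes most and 3 least correlated with Cacna1d. Marker genes, Fcgr2b, the 2 subunit genes under that count limit and the genes of the closing observations were named after their values were seen. The values of 1 neighbour are not reported here.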

Additional observations from a re-analysis of the deposited data

How the results depend on the processing

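Cacna1d kept the direction of its IC difference in all 29 alternatives, at 0.90 to 1.45, 2.15 to 2.52 and 1.53 to 2.07 on the log2 scale in LYVE1+, CD11c- and CD11c+ macrophages, and all 345 alternative values over 12 contrasts moved by less than 1 SD between replicates (0.399). The sign was not kept for 2 contrasts, CD11c+ minus CD11c- controls (-0.45 to 0.09) and LYVE1+ minus CD11c+ after IC (-0.09 to 0.46). A fit with only the 2 groups gives no value for differences of responses.

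No source says that replicate numbers pair the libraries, and they were not taken as pairs (correlation of deviations from -0.153 to 0.286 over 40 pairs with the same number). For CD11c- and CD11c+ controls all 3 were positive (0.0986, 0.286 and 0.0796), so a shared origin there is possible. With the replicate block, 1 calcium-handling gene in place of 2 was called after IC in LYVE1+ macrophages.

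The counts of called subunit genes moved as follows. With DESeq2 they were 1 after IC in LYVE1+ macrophages, 3 and 1 between controls (LYVE1+ and CD11c- against CD11c+) and 2 and 2 after IC (LYVE1+ against each MHCII+ subset). With surrogate variables they were 1 after IC in LYVE1+ macrophages, 3 between LYVE1+ and CD11c+ controls, and 2, 3 and 1 between subsets after IC. With voom they were 2, 4 and 2 between controls and 3 and 2 after IC. With only the 2 groups they were 2 between LYVE1+ and CD11c+ controls and 2 and 2 for CD11c+ against the others after IC, and with a length offset 1 between LYVE1+ and CD11c- after IC. Without both MHCII+ control libraries numbered 2, chosen after seeing the data, they were 1, 1 and 1 between controls and 2 and 2 after IC. Leaving out 1 library gave 0 to 2 between LYVE1+ and CD11c+ controls, 0 to 1 between MHCII+ controls, and 0 to 1, 1 to 2 and 0 to 1 after IC.

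For calcium-handling genes after IC in LYVE1+ macrophages the count was 1 with RLE size factors, equal depth, minimum count 3, no filter, raw totals and voom, 0 with only the 2 groups, 4 with surrogate variables and 0 to 3 without 1 library. In CD11c- macrophages it was 1 with DESeq2, 1 without both libraries numbered 2 and 0 to 1 without 1 library. Between LYVE1+ and CD11c- controls it was 4 with DESeq2, 8 without both libraries numbered 2, 5 with only the 2 groups, 0 with surrogate variables, 6 with voom and 0 to 5 without 1 library. Between MHCII+ controls it was 4 with surrogate variables and 7 to 16 without 1 library. After IC, LYVE1+ against CD11c- gave 5 with no filter, 3 with only the 2 groups, 2 with voom and 3 to 11 without 1 library, and against CD11c+ 6 to 19 without 1 library. CD11c+ against CD11c- gave 8 with DESeq2, 9 without both libraries numbered 2, 2 with no filter, 7 with only the 2 groups, 7 with surrogate variables, 15 with voom and 0 to 8 without 1 library. The difference of responses between LYVE1+ and CD11c+ gave 2 without both libraries numbered 2. The cause of these moves was not tested, and no direction of a called gene was reversed. The shares of all genes called under each alternative are not given here. A higher count under an alternative is therefore not read as a result about the listed genes.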

Other observations

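Trpm2 and Atp2a2, 2 calcium-handling genes that edgeR's quasi-likelihood test did not call after IC, were chosen for description after their values were seen. Trpm2, a calcium-permeable channel opened by ADP-ribose, stood at 4.95 ± 0.902 CPM (SD, n = 3) in LYVE1+CX3CR1+ controls and 17.1 ± 6.42 CPM (SD, n = 3) after IC, without overlap. In MHCII+CD11c- macrophages it stood at 12.6 ± 5.75 and 33.8 ± 14.1 CPM (SD, n = 3 each), also without overlap. The log2 differences were 1.80 ± 0.57 and 1.42 ± 0.55 (SE), with adjusted p-values of 0.140 and 0.325, and DESeq2 called it in LYVE1+CX3CR1+ macrophages (adjusted p = 0.0426). Atp2a2, the pump that refills the endoplasmic reticulum in most cells, stood at 233 ± 13.8 CPM in MHCII+CD11c- controls and 361 ± 57.3 CPM after IC (SD, n = 3 each). Its log2 difference there was 0.63 ± 0.16 (SE, adjusted p = 0.0655), and DESeq2 called it.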
